A study of Homo sapiens with 12 samples.

Results

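The immunoproteasome and antigen presentation genes described here are PSMB8, PSMB9, PSMB10, HLA-B, HLA-C, B2M, TAP1, TAP2 and TAPBP. They were chosen by name for their roles in the pathway, with earlier results of these data known, and are 9 of the 23284 gene symbols with a value and 9 of the 12946 genes that passed the filter on low values, so none was lost to it. RNA was sequenced from PANC-1, a human pancreatic cancer cell line, that had been infected with a retrovirus carrying the fluorescent protein ZsGreen fused to the degron of ornithine decarboxylase and selected with G418. The degron sends ZsGreen to the proteasome, so cells with low proteasome activity stay green. Degron (-) is the infected line, in which few cells are green, and degron (++) is the greenest part of a population enriched from it by repeated sorting, used by the study as a cancer stem-like cell model. Each population was sampled in 3 groups of 2 libraries: 0 Gy at 48 h, 4 Gy at 30 h and 4 Gy at 48 h. The starting point of the hours is not given in the labels, nor whether the 2 libraries of a group came from separate cultures, so p-values measure only the spread between these libraries, which may be technical.

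The proteasome cuts proteins into peptides with 3 catalytic beta subunits, PSMB5, PSMB6 and PSMB7. After interferon signals these are replaced in newly built particles by PSMB8, PSMB9 and PSMB10, which form the immunoproteasome and change which peptides are made. The peptides pass into the endoplasmic reticulum through the transporter built from TAP1 and TAP2, and the chaperone TAPBP (tapasin) holds the transporter next to empty class I molecules. A class I molecule is a heavy chain, such as that of HLA-B or HLA-C, bound to the light chain B2M (beta 2-microglobulin), and it shows the peptide to T cells at the cell surface. Both the reporter used for sorting and the immunoproteasome genes therefore concern the proteasome, which is the reason for describing these genes together in these populations.

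Several facts about the libraries bear on each comparison between the populations. The labels of the 6 degron (-) libraries conflict, with ZsGreen-negative titles and d+ in the descriptions. Each of the 12 libraries was closest, by correlation, to one of the same population, but only 3 of 12 to the other library of the group. Values are FPKM, fragments divided by exon length and by sequencing depth. Summed over all genes they came to between 829654 and 916877 per degron (++) library but to between 707273 and 763064 per degron (-) library, so scaling matters for small differences. All 5 ductal epithelial markers (KRT7, KRT8, KRT18, KRT19 and EPCAM) were at 1 FPKM or more in all 12 libraries, and their summed level was 7119 to 8302 FPKM in degron (++) and 4220 to 5124 FPKM in degron (-). PANC-1 is known to have lost both copies of CDKN2A, an inhibitor of the cell cycle, yet CDKN2A was at 100 to 112 FPKM in degron (++) and at 11.0 to 21.1 FPKM in degron (-). The populations were compared as labelled. A difference of origin and an effect of the sorted state cannot be told apart here, nor, in bulk RNA, can a change in the share of some cells be told apart from a change of RNA per cell.

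The promoters are shown first, because members that lie side by side, and even share a promoter region, differed in direction. They come from RefSeq on GRCh38.p14, while the FPKM were made on hg19, and all 9 members matched the promoter table. TAP1 and PSMB9 are read in opposite directions from starts that are 487 bases apart on chromosome 6, and their upstream windows of 250 bases share 13 bases. Capitals mark matches, on either strand, to the core of the interferon-stimulated response element (ISRE; GAAA, any 2 bases, GAAA), to a shorter form of it (GAANNGAAA), to the short cyclic AMP response element motif (CRE, TGACG) and to the NF-kB consensus. These stretches were read 5′ to 3′ on each gene's own strand and end at the base before its start:
TAP1 (chr6:32853705-32853954, minus strand): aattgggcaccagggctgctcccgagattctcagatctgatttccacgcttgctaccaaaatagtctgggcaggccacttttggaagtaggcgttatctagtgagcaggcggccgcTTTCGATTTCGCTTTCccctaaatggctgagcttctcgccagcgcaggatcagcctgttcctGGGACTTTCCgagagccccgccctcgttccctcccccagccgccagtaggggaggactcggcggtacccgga
PSMB9 (chr6:32853942-32854191, plus strand): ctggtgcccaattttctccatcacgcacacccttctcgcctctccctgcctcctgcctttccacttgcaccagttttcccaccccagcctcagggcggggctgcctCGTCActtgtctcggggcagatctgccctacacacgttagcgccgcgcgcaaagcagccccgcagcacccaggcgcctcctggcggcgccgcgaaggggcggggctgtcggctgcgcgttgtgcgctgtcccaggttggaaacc

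The TAP1 window held 2 overlapping ISRE cores on the other strand, at bases -134 to -125 and -128 to -119 counted from the start, and an NF-kB match at -72 to -63. The PSMB9 window held neither, and its only capitals are a CRE motif on the other strand at -144 to -140. These TAP1 matches lie between the starts of the 2 genes, so they are also upstream of PSMB9 but beyond its window. The class I chains are shown next, since the heavy chain promoters are nearly parallel in layout while the genes differed in size of change. They are the reference alleles, and the alleles of PANC-1 may differ:
HLA-B (chr6:31357180-31357359, minus strand): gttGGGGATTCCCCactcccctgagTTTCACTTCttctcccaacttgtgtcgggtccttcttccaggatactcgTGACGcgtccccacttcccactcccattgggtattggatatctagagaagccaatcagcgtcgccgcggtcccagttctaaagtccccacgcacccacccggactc
HLA-C (chr6:31272093-31272272, minus strand): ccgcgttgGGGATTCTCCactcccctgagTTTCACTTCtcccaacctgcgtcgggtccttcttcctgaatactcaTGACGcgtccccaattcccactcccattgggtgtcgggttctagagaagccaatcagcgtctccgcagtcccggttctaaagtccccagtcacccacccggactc
B2M (chr15:44711337-44711516, plus strand): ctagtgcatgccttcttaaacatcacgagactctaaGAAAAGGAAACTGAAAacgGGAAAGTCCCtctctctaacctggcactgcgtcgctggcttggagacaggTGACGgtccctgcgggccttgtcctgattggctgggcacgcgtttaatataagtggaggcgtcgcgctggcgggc

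In HLA-B and HLA-C an NF-kB match was followed by the short ISRE core on the other strand and by the CRE motif. The 2 genes placed the short core at -155 to -147 and -151 to -143 and the CRE motif at -106 to -102 and -105 to -101. B2M carried 2 overlapping full ISRE cores, at -144 to -135 and -138 to -129, an NF-kB match on the other strand and a CRE motif. The windows of the remaining transport and loading genes and of PSMB10 are shown for their full ISRE cores, which lie between bases -58 and -5:
TAP2 (chr6:32838740-32838859, minus strand): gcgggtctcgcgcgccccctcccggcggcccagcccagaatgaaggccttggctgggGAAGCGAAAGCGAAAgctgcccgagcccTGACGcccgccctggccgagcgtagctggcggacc
TAPBP (chr6:33314079-33314198, minus strand): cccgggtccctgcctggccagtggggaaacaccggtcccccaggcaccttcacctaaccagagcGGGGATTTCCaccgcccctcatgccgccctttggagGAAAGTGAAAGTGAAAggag
PSMB10 (chr16:67936851-67936970, minus strand): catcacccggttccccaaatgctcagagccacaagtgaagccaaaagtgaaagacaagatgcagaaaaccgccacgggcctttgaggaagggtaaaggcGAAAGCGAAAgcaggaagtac

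The search used windows of 300 bases, 250 before and 50 after the start, and 35116 such windows were searched. A full ISRE core was found in 3.57% of all windows, and in at least 1 window of 6 of the 9 members: PSMB8, PSMB10, B2M, TAP1, TAP2 and TAPBP. The one in PSMB8 spans its second listed start, at bases -4 to 6. The cores of TAP1 also lie upstream of PSMB9 but outside its window, so PSMB9 was not counted. The short core was in 7.66% of all windows, the NF-kB consensus in 11.3%, the CRE motif in 24.6%, the CCAAT box in 34.6% and the GAS element (TTCNNNGAA) in 7.66%. The short core can overlap a full core, as it does in TAP2. Genes with a full core stood on both sides of the comparison between the populations: PSMB8, PSMB10, B2M and TAP2 were higher in degron (++), and TAP1 and TAPBP were lower. A match of letters is a description of the window and not a site of binding.

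Between the populations, 7 of the 9 genes were higher in degron (++) than in degron (-) cells and 2, TAP1 and TAPBP, were lower. This held at 0 Gy 48 h, at 4 Gy 30 h and at 4 Gy 48 h, and for each of the 9 genes the 6 libraries of one population lay wholly apart from the 6 of the other. The populations differed across most of the genome, which sets the scale for these counts. Past an adjusted p of 0.05 (limma on log2(FPKM + 1), Benjamini-Hochberg over all tested genes), 77.7% of all tested genes differed at 0 Gy 48 h, 37.6% higher and 40.2% lower in degron (++). At 4 Gy 30 h the shares were 79.1% in all, 38.3% higher and 40.8% lower, and at 4 Gy 48 h they were 76.7%, 37.1% and 39.6%. Over all tested genes, 34.1% had every degron (++) library above every degron (-) library and 37.2% had every one below. That all 9 members passed is therefore not particular to them. The median log2 fold change of the 9 was 0.67, 0.48 and 0.36 in the 3 conditions, against -0.02, -0.02 and -0.01 over all tested genes.

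**Figure D1:**
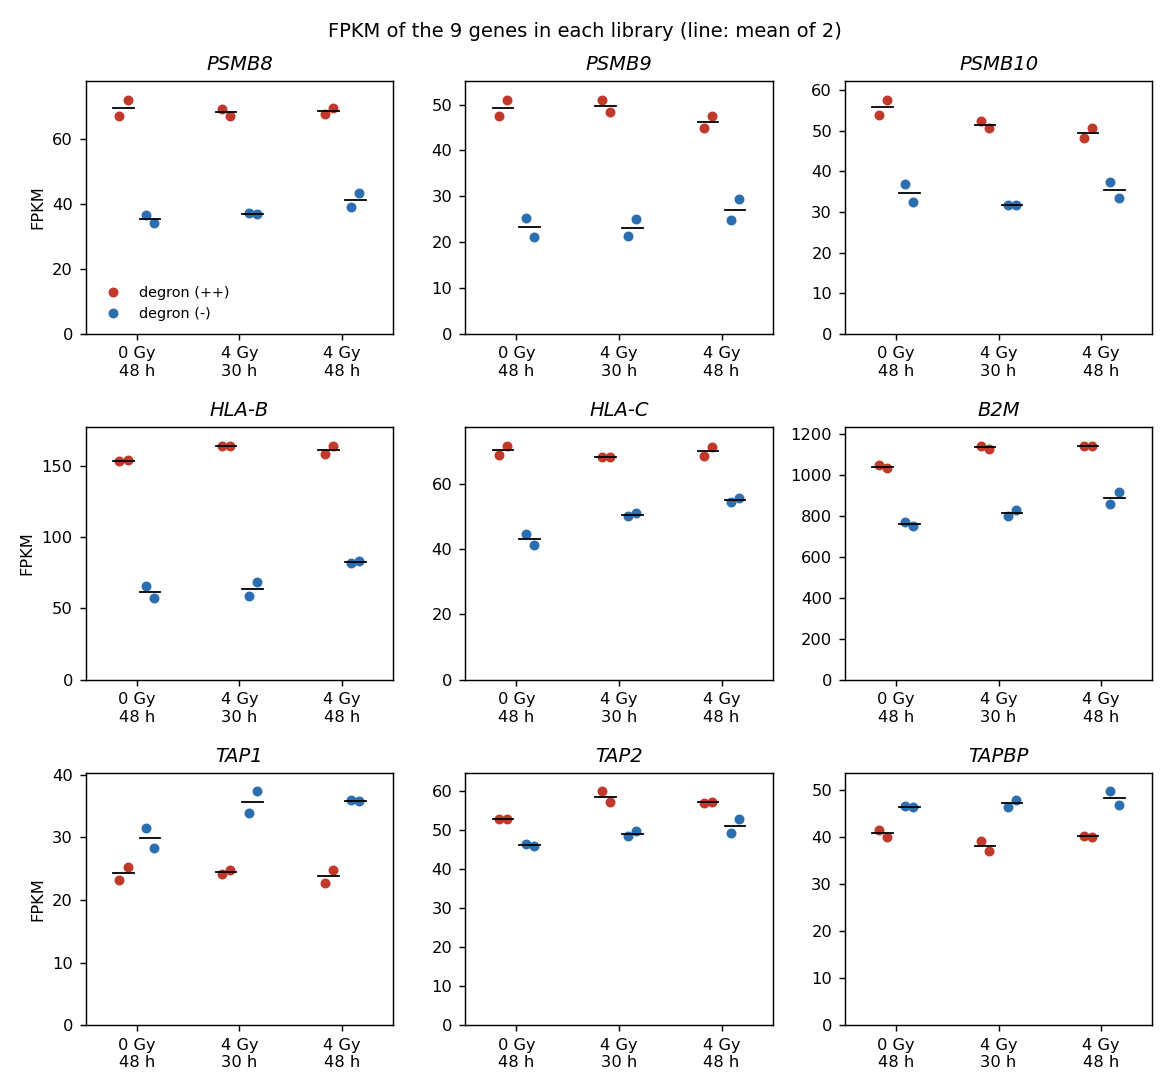
FPKM (y axis, from 0) of the 9 genes in each of the 12 libraries, by dose and time (x axis), with degron (++) in red, degron (-) in blue and a line at the mean of 2 libraries. In every panel the colours stay apart, with red above blue except in TAP1 and TAPBP.

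The immunoproteasome subunits were all higher in degron (++) cells. PSMB8, the counterpart of PSMB5 (chymotrypsin-like activity), read 66.9 and 72.0 FPKM in degron (++) and 36.7 and 34.1 FPKM in degron (-) cells at 0 Gy 48 h. At 4 Gy it read 69.3 and 67.0 FPKM (30 h) and 67.7 and 69.4 FPKM (48 h) in degron (++), and 37.2 and 36.8 FPKM (30 h) and 39.1 and 43.2 FPKM (48 h) in degron (-). The degron (++) libraries therefore stayed within a narrow band, and the highest degron (-) libraries were those at 4 Gy 48 h. Between the populations the log2 fold change was 0.95 ± 0.06 (SE) at 0 Gy 48 h (limma, adjusted p = 4.67e-07), 0.86 at 4 Gy 30 h and 0.72 at 4 Gy 48 h.

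PSMB9, which takes the place of PSMB6, read 47.4 and 51.0 FPKM in degron (++) and 25.3 and 21.1 FPKM in degron (-) at 0 Gy 48 h. It read 51.0 and 48.4 against 21.2 and 25.1 FPKM at 4 Gy 30 h, and 44.9 and 47.4 against 24.8 and 29.4 FPKM at 4 Gy 48 h. Its replicates in degron (-) were farther apart than those of PSMB8, and its standard error was the largest of the 9. Its log2 fold change was 1.06 ± 0.11 (SE) at 0 Gy 48 h (limma, adjusted p = 1.84e-05), 1.07 at 4 Gy 30 h and 0.75 at 4 Gy 48 h.

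PSMB10, on chromosome 16 and so away from the other subunits, replaces PSMB7. It read 53.9 and 57.6 against 36.8 and 32.5 FPKM at 0 Gy 48 h, 52.4 and 50.6 against 31.7 and 31.7 FPKM at 4 Gy 30 h, and 48.1 and 50.8 against 37.4 and 33.5 FPKM at 4 Gy 48 h. The gap was narrower than for the other subunits, at 0.67 ± 0.07 (SE; limma, adjusted p = 1.84e-05), 0.68 and 0.47 on the log2 scale. In GENCODE v29, 36.7% of the stretches of 50 bases of PSMB10 transcripts also occur in another listed transcript, AC040162.1, so its reads may have been split. For PSMB9 the share is 9.95%, with PSMB8-AS1, which is not among the gene symbols with a value.

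**Figure D2:**
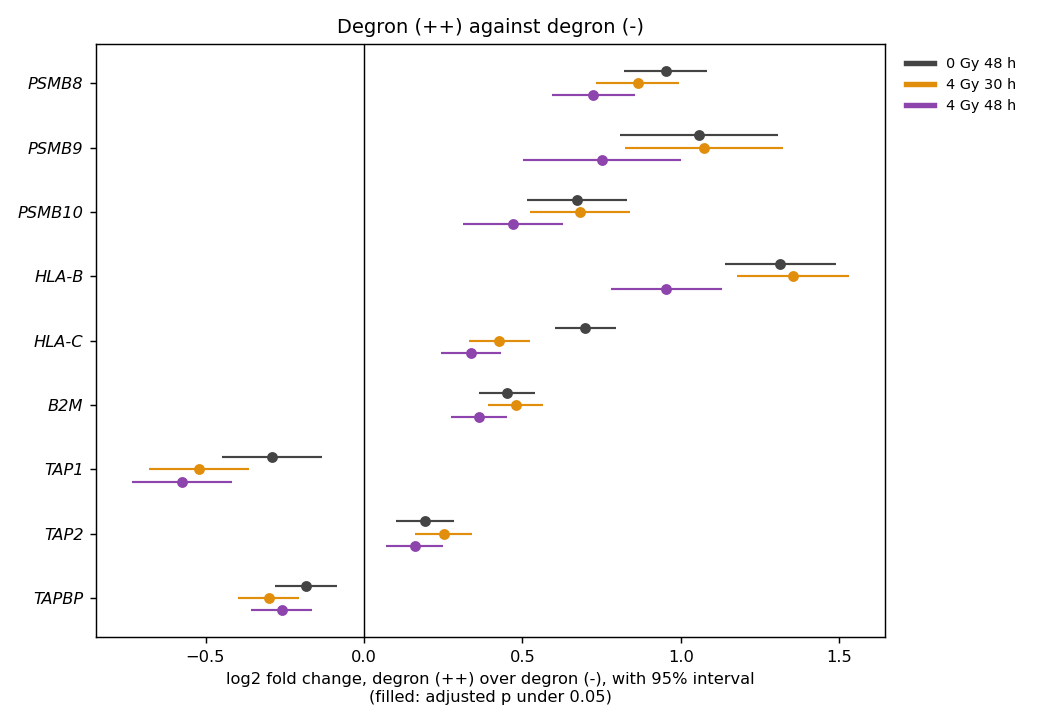
Log2 fold change of degron (++) over degron (-) (x axis) with its 95% interval for each gene (y axis) at 0 Gy 48 h (grey), 4 Gy 30 h (orange) and 4 Gy 48 h (purple), from limma. Every interval lies on one side of 0, to the left for TAP1 and TAPBP, and HLA-B and PSMB9 lie farthest to the right.

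The constitutive counterparts did not move as one group, so the makeup of each pair differed. PSMB5 read 258 to 286 FPKM in degron (++) and 214 to 257 FPKM in degron (-), and its log2 difference of 0.13 at 0 Gy 48 h did not pass the threshold (limma, adjusted p = 0.0640), while that of 0.28 at 4 Gy 30 h did (adjusted p = 0.00159) and that of 0.14 at 4 Gy 48 h did not (adjusted p = 0.0533). PSMB6 was lower in degron (++), at 228 to 257 against 323 to 354 FPKM (log2 fold change -0.49, adjusted p = 4.61e-05), and PSMB7 was higher, at 494 to 551 against 281 to 326 FPKM (0.78, adjusted p = 2.38e-07). The share of the immunoproteasome subunit within its pair, computed per length from FPKM, was 19.5% to 21.3% (median 20.1%) for PSMB8 in the 6 degron (++) libraries and 12.7% to 14.8% (median 13.6%) in the 6 degron (-) libraries. For PSMB9 within PSMB9 and PSMB6 it was 15.7% to 17.2% (median 16.4%) against 5.86% to 8.12% (median 6.87%). For PSMB10 within PSMB10 and PSMB7 it was 8.30% to 9.97% (median 8.70%) against 9.31% to 10.8% (median 10.1%), with ranges that overlap when the conditions are pooled. The shares of PSMB8 and PSMB9 were thus higher in degron (++) in every library, while that of PSMB10 was lower in degron (++) within each condition, in both libraries against both, and in both populations the constitutive subunit made up most of each pair. These shares are of RNA and say nothing of assembled particles.

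**Figure D3:**
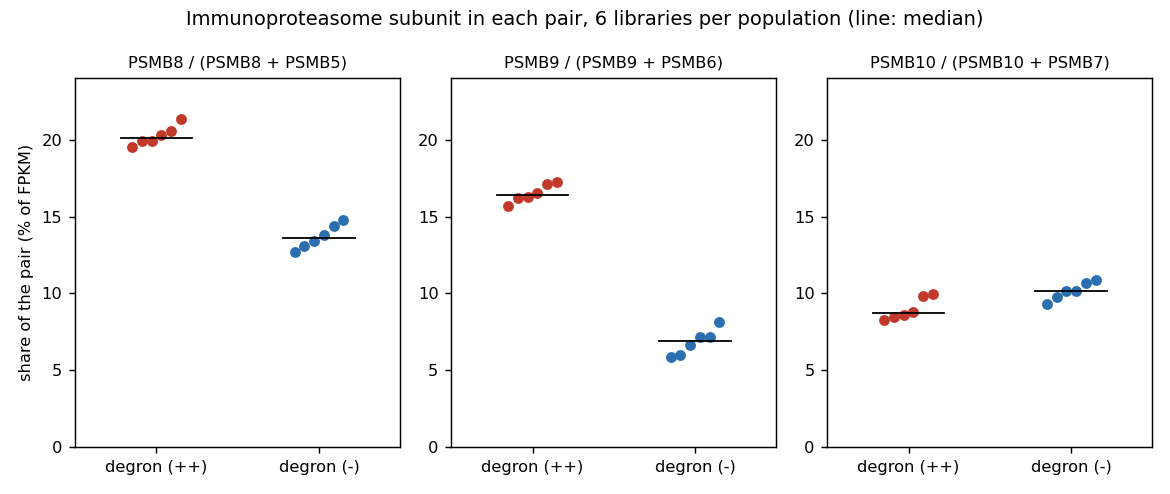
Share of FPKM held by the immunoproteasome subunit within each pair (y axis, %, from 0) in the 6 degron (++) and 6 degron (-) libraries (x axis), with a line at the median. For PSMB8 and PSMB9 the populations are apart, and for PSMB10 they overlap over all conditions.

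All 3 class I chains were higher in degron (++) cells, and HLA-B had the largest log2 fold change of the 9 genes in each condition. HLA-B read 153 and 154 FPKM in degron (++) and 65.8 and 57.0 FPKM in degron (-) at 0 Gy 48 h. It read 164 and 164 against 58.8 and 68.6 FPKM at 4 Gy 30 h, and 158 and 164 against 81.7 and 83.4 FPKM at 4 Gy 48 h. In mean FPKM this was 2.505, 2.574 and 1.950 times as much in degron (++), and the log2 fold change was 1.31 ± 0.08 (SE; limma, adjusted p = 3.92e-07), 1.35 and 0.95.

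HLA-C read 69.1 and 71.9 against 44.7 and 41.5 FPKM at 0 Gy 48 h, 68.4 and 68.5 against 50.3 and 51.0 FPKM at 4 Gy 30 h, and 68.8 and 71.3 against 54.5 and 55.8 FPKM at 4 Gy 48 h. Degron (++) libraries were again level, and the lowest values were those of unirradiated degron (-) cells. On the log2 scale the difference was 0.70 ± 0.04 (SE; limma, adjusted p = 4.33e-07), 0.43 and 0.34. The ratio of HLA-B to HLA-C lay between 2.15 and 2.40 in degron (++) libraries and between 1.17 and 1.498 in degron (-) libraries, so the heavy chains differed by unequal amounts. Class I genes resemble each other and vary between people: 2.12% of the 50-base stretches of HLA-B and 6.17% of those of HLA-C also occur in transcripts of other genes, and reads of the line's own alleles may align unevenly to the reference.

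B2M, the most abundant of the 9 in both populations, read 1045 and 1032 against 767 and 751 FPKM at 0 Gy 48 h. It read 1139 and 1126 against 799 and 826 FPKM at 4 Gy 30 h, and 1141 and 1138 against 858 and 914 FPKM at 4 Gy 48 h. Its log2 fold change was 0.45 ± 0.04 (SE; limma, adjusted p = 4.71e-06), 0.48 and 0.36. There were 6.69 to 7.22 FPKM of B2M for each FPKM of HLA-B in degron (++) and 10.5 to 13.6 in degron (-).

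The genes for transport and loading did not share a direction. TAP1 was lower in degron (++), at 23.2 and 25.2 against 31.4 and 28.3 FPKM at 0 Gy 48 h, 24.1 and 24.8 against 33.8 and 37.3 FPKM at 4 Gy 30 h, and 22.8 and 24.8 against 36.0 and 35.7 FPKM at 4 Gy 48 h. The log2 fold change was -0.29 ± 0.07 (SE; limma, adjusted p = 0.00408), -0.52 (adjusted p = 9.62e-05) and -0.57 (adjusted p = 5.61e-05). TAP1 was thus below PSMB9 in every degron (++) library and above it in every degron (-) library, with 0.473 to 0.522 FPKM of TAP1 per FPKM of PSMB9 in degron (++) and 1.21 to 1.59 in degron (-). These are the genes on either side of the promoter region printed above.

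TAP2, the partner of TAP1 in the transporter, was higher in degron (++), at 52.9 and 52.9 against 46.5 and 45.9 FPKM at 0 Gy 48 h, 59.9 and 57.2 against 48.3 and 49.7 FPKM at 4 Gy 30 h, and 57.0 and 57.2 against 49.3 and 52.8 FPKM at 4 Gy 48 h. The highest degron (-) library, at 52.76 FPKM, lay just under the lowest degron (++) library, at 52.90 FPKM. The log2 fold change was 0.19 ± 0.04 (SE; limma, adjusted p = 0.00183), 0.25 and 0.16, the smallest of the members that were higher. The ratio of TAP1 to TAP2, in FPKM, lay between 0.400 and 0.477 in degron (++) libraries and between 0.616 and 0.752 in degron (-) libraries. Of the 50-base stretches of TAP2, 32.7% also occur in the transcript AL669918.1, so its values are uncertain.

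TAPBP was lower in degron (++), at 41.4 and 39.9 against 46.4 and 46.2 FPKM at 0 Gy 48 h, 39.1 and 37.0 against 46.3 and 47.9 FPKM at 4 Gy 30 h, and 40.2 and 40.0 against 49.6 and 46.8 FPKM at 4 Gy 48 h. The log2 fold change was -0.18 ± 0.04 (SE; limma, adjusted p = 0.00337), -0.30 and -0.26. TAPBP overlaps RGL2, a gene at 6.50 to 17.9 FPKM, and PSMB8 and TAP1 overlap the antisense gene PSMB8-AS1. RGL2 has a value of its own, while PSMB8-AS1 is not among the gene symbols with a value. The library kit marks strand, but whether strand was used in counting is not stated. Reads may therefore have been shared with RGL2, and reads of PSMB8-AS1 may have been counted for PSMB8 or TAP1.

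Some of these differences depended on scaling. When FPKM were rescaled to an equal total in every library (TPM), the median of all tested genes moved from -0.02 to -0.21 at 0 Gy 48 h, from -0.02 to -0.27 at 4 Gy 30 h and from -0.01 to -0.25 at 4 Gy 48 h. The total includes 1 entry, MIR622, that held 28.6% to 30.0% of it in degron (++) libraries. In degron (-) libraries MIR622 held 22.5% to 27.1%, so TPM depends in part on this entry. With TPM the higher genes made up 35.9%, 33.3% and 31.7% of those called, in place of 48.3%, 48.5% and 48.3%. TAP2 went to -0.01, -0.03 and -0.10 and was not called (limma, adjusted p = 0.820, 0.635 and 0.106), although it stayed above the shifted median. HLA-C (0.08, adjusted p = 0.124) and B2M (0.10, adjusted p = 0.105) lost their calls at 4 Gy 48 h. With quantile normalization B2M fell to 0.06 at 4 Gy 30 h (adjusted p = 0.418) and to -0.11 at 4 Gy 48 h (adjusted p = 0.149). PSMB8, PSMB9, PSMB10, HLA-B, TAP1 and TAPBP kept direction and call in each condition under both scalings.

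The order of the 9 levels, in FPKM, differed between the populations. In degron (++) it was B2M, HLA-B, HLA-C, PSMB8, TAP2, PSMB10, PSMB9, TAPBP and TAP1, with means from 1104 down to 24.2 FPKM over 6 libraries. The ranges of HLA-C and PSMB8 and of TAP2 and PSMB10 overlapped, and which of the pair was higher differed between libraries. Those of PSMB10 and PSMB9 overlapped too, but PSMB10 was above PSMB9 in each of the 6 libraries. In degron (-) it was B2M, HLA-B, HLA-C, TAP2, TAPBP, PSMB8, PSMB10, TAP1 and PSMB9, from 819 down to 24.5 FPKM, with overlaps from HLA-C to TAPBP and from PSMB8 to PSMB9, although TAP1 was above PSMB9 in each library. PSMB9 was last in degron (-) and TAP1 last in degron (++).

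At 48 h, 4 Gy against 0 Gy left no member past the threshold in degron (++) cells, 0 of 9, where 1.82% of all tested genes passed in either direction (limma; 2282 genes had an unadjusted p under 0.05). In degron (-) cells the 3 class I chains rose, 3 of 9, where 4.73% of all tested genes passed and 3.85% passed upward. HLA-B rose by 0.43 on the log2 scale (limma, adjusted p = 0.0205), from 65.8 and 57.0 to 81.7 and 83.4 FPKM. HLA-C rose by 0.35 (adjusted p = 0.00404), from 44.7 and 41.5 to 54.5 and 55.8 FPKM, and B2M by 0.22 (adjusted p = 0.0171), from 767 and 751 to 858 and 914 FPKM. In each of the 3 genes both irradiated libraries lay above both unirradiated ones. The other 6 members had log2 differences of 0.03 (PSMB10) to 0.26 (TAP1), none past the threshold, and the median of the 9 was 0.22 in degron (-) and -0.02 in degron (++), against 0.01 and 0.00 over all tested genes.

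The calls for this rise in degron (-) rested on few libraries and depended on which were fitted. When only the 4 libraries compared were fitted, 0 of 9 members passed. The adjusted p (limma) was 0.165 for HLA-B, 0.144 for HLA-C and 0.188 for B2M at the same log2 fold changes. Calls over all tested genes fell from 612 to 8 in that fit, so the loss was not particular to the members. Without replicate 2 of degron (-) 4 Gy 48 h, or without replicate 2 of degron (-) 0 Gy 48 h, 1 of 9 passed, and that was HLA-C. HLA-B then stood at 0.41 (adjusted p = 0.120) and 0.32 (adjusted p = 0.104), and B2M at 0.18 (adjusted p = 0.104) and 0.21 (adjusted p = 0.0998). HLA-B also lost its call without replicate 1 of degron (-) 4 Gy 48 h (0.44, adjusted p = 0.0711), B2M without replicate 1 of degron (-) 0 Gy 48 h (0.24, adjusted p = 0.0509), and B2M with TPM (0.21, adjusted p = 0.0722). HLA-C kept its call in each fit that left out 1 library. Calls over all tested genes fell in each of these fits too.

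Whether the response to dose differed between the populations was tested as an interaction. It passed for 0 of 9 members, where 0.0772% of all tested genes passed (limma; 1758 genes had an unadjusted p under 0.05). The nearest was HLA-C, with a difference of -0.36 on the log2 scale, a 95% interval of -0.49 to -0.23 and adjusted p = 0.0783. With quantile normalization (-0.43, adjusted p = 0.0357) and with TPM (-0.42, adjusted p = 0.0478) HLA-C passed. A response to dose that differs between the populations was therefore not shown for the members in the fit of FPKM as deposited. For HLA-B the difference was -0.36 with an interval of -0.61 to -0.11 (adjusted p = 0.210), and for B2M it was -0.09 with an interval of -0.21 to 0.04 (adjusted p = 0.507).

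**Figure D4:**
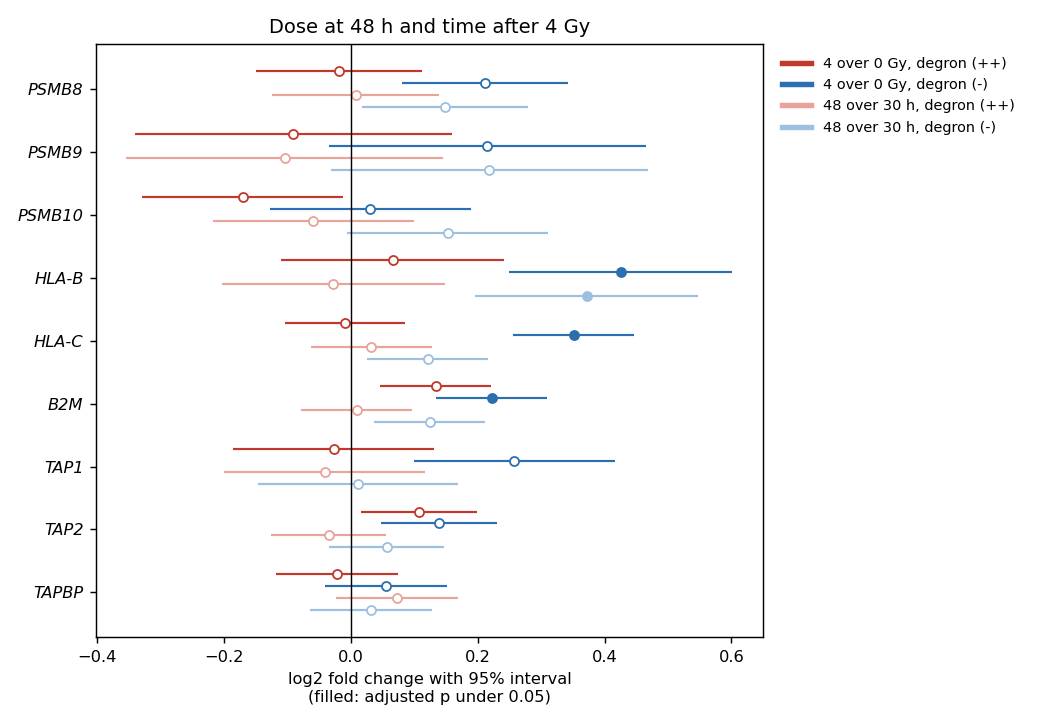
Log2 fold change (x axis) with its 95% interval for each gene (y axis) for 4 Gy over 0 Gy at 48 h and for 48 h over 30 h after 4 Gy, in degron (++) (reds) and degron (-) (blues), from limma. Filled points, which passed the threshold, are HLA-B, HLA-C and B2M for dose and HLA-B for time, all in degron (-).

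Between 30 h and 48 h after 4 Gy, 0 of 9 members passed in degron (++) cells, where 1.21% of all tested genes did (limma; 2050 genes had an unadjusted p under 0.05). In degron (-) cells 1 of 9 passed, where 7.18% of all tested genes did and 6.01% did upward. This was HLA-B, which rose by 0.37 on the log2 scale (limma, adjusted p = 0.0248), from 58.8 and 68.6 FPKM at 30 h to 81.7 and 83.4 FPKM at 48 h. PSMB9 (0.22) and PSMB10 (0.15) had the next largest differences and did not pass. With only the 4 libraries compared, calls over all tested genes fell from 930 to 7. The HLA-B call was lost in that fit (limma, adjusted p = 0.131). It was also lost without replicate 1 of degron (-) 4 Gy 30 h (0.26, adjusted p = 0.131), and without replicate 1 (0.39, adjusted p = 0.0760) or replicate 2 (0.36, adjusted p = 0.149) of degron (-) 4 Gy 48 h. The difference in time course between the populations passed for 0 of 9 members, where 3.23% of all tested genes passed (limma; 2316 genes had an unadjusted p under 0.05), and was -0.40 for HLA-B (95% interval -0.65 to -0.15, adjusted p = 0.0974). The comparisons of dose and of time both use the 4 Gy 48 h libraries, and the comparisons between populations use the same libraries again.

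Other genes moved with HLA-B in the same degron (-) libraries. KRT7 rose by 0.86 between 30 h and 48 h after 4 Gy (limma, adjusted p = 0.00116), from 133 and 144 to 233 and 273 FPKM, and EPCAM by 0.64 (adjusted p = 0.00107), from 29.9 and 31.9 to 44.8 and 52.8 FPKM. CDKN2A, CDKN2B and MTAP, which neighbour each other, rose by 0.73, 0.80 and 0.55, and all 3 passed. All 5 of these genes were higher in degron (++) cells in each condition. CDKN2A in degron (-) was 16.2% of its mean FPKM in degron (++) at 0 Gy 48 h, 11.5% at 4 Gy 30 h and 18.5% at 4 Gy 48 h. For dose at 48 h in degron (-), KRT7 (0.44) and EPCAM (0.37) passed, while 0 of the 3 genes CDKN2A, CDKN2B and MTAP did. Whether these shifts have a part in the changes of HLA-B, HLA-C and B2M was not tested.

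Of 14 other genes of the class I pathway, 13 were tested. At 0 Gy 48 h, 10 were higher in degron (++), 1 was lower and 2 did not pass, with a median log2 fold change of 0.42. Over all tested genes 37.6% were higher and 40.2% lower. ERAP2, an aminopeptidase that trims peptides in the endoplasmic reticulum, differed most, at 42.6 to 49.5 against 11.4 to 15.2 FPKM (log2 fold change 1.93 ± 0.05, SE; limma, adjusted p = 1.63e-09). The tapasin-related gene TAPBPL (1.46) and PSME1 (1.09), a subunit of the proteasome activator PA28, followed, then HLA-F (0.80), the proteasome assembly factor POMP (0.55) and the second PA28 subunit PSME2 (0.48). Unlike its relative TAPBPL, TAPBP was lower. The 1 gene that was lower, PDIA3, is a partner of tapasin in the loading complex (-0.31; its name was chosen after its value was seen). At 4 Gy 30 h and at 4 Gy 48 h, 8 were higher, 2 lower and 3 did not pass. Over all tested genes 38.3% and 37.1% were higher in these conditions, and 40.8% and 39.6% were lower. HLA-F was among the genes that did not pass in either condition, at -0.08 and 0.14.

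Dose at 48 h raised 4 of these 13 genes in degron (-) cells, where 3.85% of all tested genes rose, and 0 in degron (++) cells, where 1.82% of all tested genes passed. The difference between the populations in the response to dose passed for 0 of the 13, where 0.0772% of all tested genes passed. Among the 4 were ERAP2 (0.27, limma adjusted p = 0.0174), HLA-F (0.66, adjusted p = 0.0362) and HLA-E (0.44, adjusted p = 0.00578), the last named after its value was seen. HLA-E, a nonclassical class I chain that natural killer cells read, went from 42.3 and 42.4 to 57.5 and 57.8 FPKM. The difference in time course between the populations passed for ERAP2 (-0.41, limma adjusted p = 0.0180), from 11.40 and 12.02 FPKM at 30 h to 14.3 and 15.2 FPKM at 48 h in degron (-), and from 45.7 and 47.6 to 44.5 and 42.6 FPKM in degron (++).

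Of 26 regulators of class I transcription, all were tested. At 0 Gy 48 h 12 were higher in degron (++), 11 were lower and 3 did not pass, with a median of 0.09. Over all tested genes 37.6% were higher and 40.2% lower. At 4 Gy 30 h 11 were higher and 12 lower, where 38.3% and 40.8% of all tested genes were. At 4 Gy 48 h 9 were higher and 11 lower, where 37.1% and 39.6% of all tested genes were. NLRC5, the transactivator of class I genes, was at 5.45 to 7.55 FPKM in degron (++) and 0.920 to 2.103 FPKM in degron (-), with log2 fold changes of 1.57, 1.67 and 1.27 (limma, adjusted p = 1.46e-06, 8.54e-07 and 6.87e-06). IRF1, which binds ISRE motifs, was at 14.9 to 18.1 against 8.02 to 11.97 FPKM (0.86, adjusted p = 6.09e-07, then 0.62 and 0.61). Among the others with the largest differences at 0 Gy 48 h, STAT2 was higher (0.97) and IFNGR2, a chain of the interferon gamma receptor, was lower (-1.69), as were the signalling inhibitor SOCS1 (-1.06), NFKB2 (-0.99) and NFYA (-0.91). IFNGR2 read 11.58 to 13.05 FPKM in degron (++) and 38.8 to 49.7 FPKM in degron (-).

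NLRC5 and IRF1 were thus higher in degron (++) and IFNGR2 was lower. Whether the differences of the regulators have a part in those of the members was not tested. Dose at 48 h raised 4 of the 26 in degron (-), where 3.85% of all tested genes rose. The difference between the populations in this response passed for 0 of the 26, where 0.0772% of all tested genes passed. IRF1 rose by 0.45 (limma, adjusted p = 0.00406), from 8.02 and 8.09 to 10.84 and 11.97 FPKM, and NFKB2, RELA and RELB by 0.35, 0.17 and 0.33. In degron (++) 1 of 26 passed, NFKB2 (0.47, limma adjusted p = 0.0156), where 1.82% of all tested genes passed. RELA and RELB were named after their values were seen. For time after 4 Gy in degron (-), 1 of the 26 rose and 1 fell, where 7.18% of all tested genes passed. NLRC5 went from 0.920 and 1.41 to 2.048 and 2.103 FPKM (0.52, limma adjusted p = 0.0292), and IFNGR2 from 49.7 and 48.9 to 41.6 and 41.7 FPKM (-0.24, adjusted p = 0.0223).

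RNA of other cell types was looked for through marker lists. Of 10 leukocyte markers, the lymphocyte genes CD3E, CD3D and MS4A1 and the myeloid gene TYROBP were listed at 0 in all 12 libraries. The 10 summed to 4.495 to 6.514 FPKM in degron (++) and 125 to 166 FPKM in degron (-), and CD68, a lysosomal protein that many cell lines express, made up most of the latter at 124 to 165 FPKM. Both tested leukocyte markers passed at 0 Gy 48 h, CD68 lower (-5.06) and CD14 higher (1.07) in degron (++). Of 8 fibroblast markers, COL1A2 and DCN were listed at 0 in all libraries, and the 3 that were tested differed in opposite directions. COL1A1 (-4.97 on the log2 scale) and THY1 (-1.97) were lower in degron (++), and LUM (3.44) was higher (limma, adjusted p = 3.92e-10, 4.44e-08 and 8.65e-09 at 0 Gy 48 h). COL1A1 was at 0.531 to 0.826 against 36.5 to 52.3 FPKM, THY1 at 0 to 0.088 against 2.81 to 4.79 FPKM and LUM at 13.8 to 24.7 against 0.290 to 1.61 FPKM, and the 8 summed to 14.5 to 25.5 against 40.9 to 56.9 FPKM. Their part in the differences of the members was not tested. Of 11 class II pathway genes, 2 were tested, and HLA-DRB1 and HLA-DQA1 were listed at 0 in all libraries, with a summed level of 2.197 to 3.696 against 1.31 to 2.85 FPKM. CTSS was higher in degron (++) at 0 Gy 48 h (0.97), and HLA-DMA (0.10) did not pass there. At 4 Gy 30 h and at 4 Gy 48 h, CTSS and HLA-DMA were both higher in degron (++) and passed. The endothelial markers summed to at most 0.556 FPKM.

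The members were also set beside the genes that lie near them. Of the 9 genes, 7 lie on the short arm of chromosome 6, in the major histocompatibility complex, B2M lies on chromosome 15 and PSMB10 on chromosome 16. The gene order of the reference annotation was used, which placed 12537 of the 12946 tested genes. Among the 72 other tested genes in the stretch of chromosome 6 that holds the 7 members, 10 were higher in degron (++), 39 were lower and 23 did not pass at 0 Gy 48 h, with a median log2 fold change of -0.43. Over the 3 nearest tested genes on either side of each of the 9, 30 were no members, of which 7 were higher, 13 lower and 10 not past the threshold. Over all tested genes 37.6% were higher and 40.2% lower in this comparison. At 4 Gy 30 h, 8 of the 30 were higher and 18 lower, where 38.3% and 40.8% of all tested genes were. At 4 Gy 48 h, 8 of the 30 were higher and 16 lower, where 37.1% and 39.6% of all tested genes were. In the run TAP2, PSMB8, TAP1 and PSMB9 the log2 fold changes were 0.19, 0.95, -0.29 and 1.06, and TAP1 was the only 1 of these 4 neighbours below 0.

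**Figure D5:**
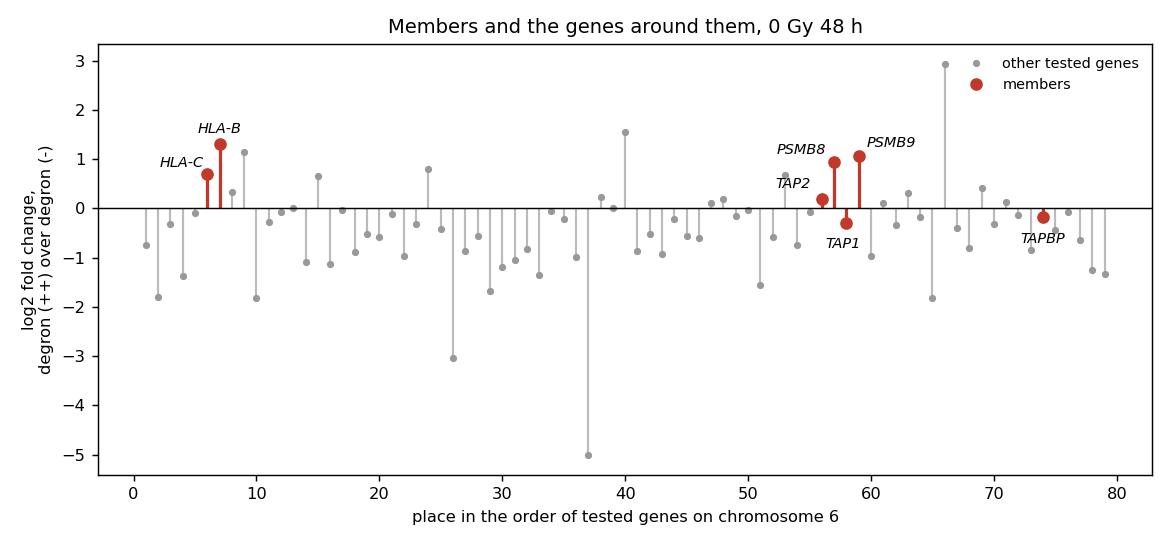
Log2 fold change of degron (++) over degron (-) at 0 Gy 48 h (y axis) for 79 tested genes in their order along chromosome 6 (x axis, place in the order), with the 7 members in red and the other 72 in grey. TAP1 points down between PSMB8 and PSMB9, and most of the grey genes lie below 0.

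Within the populations the members also varied from library to library. For each gene the deviation of log2(FPKM + 1) from the mean of its population was taken in the 12 libraries, which share 6 groups and 1 scaling each, so the correlations are descriptions. TAP1 was most like FAM213B (Pearson r = 0.90) and PRIC285 (r = 0.88) among 9181 genes with a mean of at least 5 FPKM, and HLA-C (r = 0.87) was also among its 5 nearest. PSMB9 was most like TAGLN2 (r = 0.92), SUN2 (r = 0.89), CTNNA1 (r = 0.89), AMOTL1 (r = 0.87) and CTSZ (r = 0.87). Among the members, B2M and TAP2 (r = 0.94) and PSMB8 and PSMB9 (r = 0.81) were close, while TAP1 and PSMB9, the genes that share a promoter region, had r = 0.58. TAPBP and PSMB9 had r = 0.07.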

How the data were processed

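Libraries of degron (++) and degron (-) RNA, 12 in 6 groups, were prepared by the authors with a stranded mRNA kit and sequenced. The authors deposited FPKM per gene symbol. Their processing notes name TopHat2 2.1.1, Bowtie2 2.2.8, SAMtools 0.1.18, Cuffdiff 2.2.1 and hg19, and the annotation is not given in the sources used here. FPKM hold no counts. The depth is therefore unknown, and counting error was not estimated. Steps between low FPKM put the relative depth of the libraries at 0.862 to 1.17. An FPKM of 0 was read as listed at 0.

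Here log2(FPKM + 1), which understates the change of low genes, was tested in R 4.3.3 with limma 3.58.1 (lmFit, eBayes with trend). Only the 12946 genes that reached 1 FPKM in 2 or more libraries were included. The fit had 6 group means over 12 libraries, and the threshold was a Benjamini-Hochberg adjusted p of 0.05 over all tested genes. No 2 libraries held identical values. The fit was also run on simulated data for degron (++) against degron (-) at 0 Gy 48 h. Among 12390 genes, 198 were changed by 1 on the log2 scale, up or down. Of these 93.4% were recovered, with 8 false calls. In the measured libraries 77.7% of all tested genes differed in this comparison. Recovery at such a share, or by size of difference, was not tested.

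The members and gene lists were chosen with earlier results of these data known. Named were all members, PSMB5, PSMB6, PSMB7, NLRC5, IRF1 and, per list, at most the 6 genes past the threshold with the largest difference between the populations at 0 Gy 48 h. All tested genes were named in lists with 6 or fewer, and markers listed at 0 were named besides, after their values were seen. The 5 genes most like TAP1 and PSMB9 were taken by Pearson r, and not all of them are reported here. Promoters are from RefSeq on GRCh38.p14, overlaps from RefSeq genes, and shared stretches from GENCODE v29. Alternatives were a pseudocount of 0.1, quantile normalization, TPM, no filter or a minimum of 5 FPKM, eBayes without trend, a replicate block, only the libraries compared, and each library left out. Figures were drawn with matplotlib 3.10.9 in Python 3.11.15.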

Additional observations from a re-analysis of the deposited data

How the results depend on the processing

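For the 9 members, values between populations kept direction and call in 317 cases under the alternatives, lost the call in 3 and turned in 4. Values for dose kept both in 204, lost the call in 10 and gained it in 2, values for time kept both in 212 and lost the call in 4, and interactions kept both in 286 and gained the call in 2. Values called in neither fit were counted as kept whatever their sign, and some of these, close to 0, changed it. The direction turned for TAP2 with TPM, to -0.014 at 0 Gy 48 h, -0.028 at 4 Gy 30 h and -0.10 at 4 Gy 48 h, and for B2M with quantile normalization at 4 Gy 48 h, to -0.11. The calls lost without a turn were HLA-C (0.08) and B2M (0.10) with TPM at 4 Gy 48 h and B2M (0.06) with quantile normalization at 4 Gy 30 h. The cause was not tested.

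The number of members past the threshold for dose at 48 h in degron (-), 3, was 0 with only the libraries compared, a fit with fewer samples, and 1 to 3 when 1 library was left out. For time after 4 Gy in degron (-) it was 1, then 0 with only the libraries compared, and 0 to 1 when 1 library was left out. For the interaction of dose and population it was 0, then 1 (HLA-C) with quantile normalization and 1 with TPM. A group with 1 library left is assumed to vary like the other groups. TAP1 (0.24) with TPM and TAP2 (0.15) with quantile normalization gained a call for dose in degron (-).

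Replicate numbers did not pair the libraries: same-numbered deviations correlated at -0.04 to 0.12. With the replicate block, 9, 9 and 9 members passed between the populations, 3 and 0 for dose in degron (-) and degron (++), 1 and 0 for time, and 0 for both interactions, so it changed no call of a member.

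Counts over all genes moved more. With the block, calls fell from 236 to 125 (dose in degron (++)), from 156 to 88 (time in degron (++)) and from 10 to 2 (dose by population). With only the libraries compared, dose gave 17 in degron (++) and 8 in place of 612 in degron (-), time gave 12 and 7 in place of 930, and the interactions 6 and 128 in place of 418. TPM gave 57, 341, 40, 611, 20 and 225 calls in the same order, quantile normalization 149 for dose in degron (++) and 35 for dose by population, and eBayes without trend 128 for dose and 78 for time in degron (++). For dose by population a pseudocount of 0.1 gave 17 and the higher minimum 22, and for time by population no filter gave 273. Leaving out 1 library gave 1 to 36, 115 to 364, 15 to 25, 281 to 460, 0 to 18 and 67 to 193 calls where the count moved past 1.5 times. Without counts, depth sets no stated limit on these values, and 2 libraries a group limit their precision.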
